A study of Homo sapiens with 118 samples.

Results

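The 6 libraries of HepaRG cells exposed to the 2 highest concentrations of valproic acid were compared with the 3 libraries exposed to its lowest concentration, which together are 9 of the 118 libraries of the series used here. The libraries were taken by their concentration labels, C4 (2712.9) and C5 (3038) pooled against C1 (100.478), and all 22068 usable probe rows entered the comparison. The series profiled 8 histone deacetylase inhibitors by TempO-Seq, an assay in which pairs of detector oligonucleotides are ligated on their target RNA in crude lysate and counted by sequencing, so that each row is a probe and a gene can have several. HepaRG is an established human liver tumour line that differentiates into hepatocyte-like and biliary-like cells. The cells of every group, for which the labels name no genetic change, received the chemical anew each day for 72 hours. Each concentration was run in 3 batches of HepaRG cells, all on plate H, and the batch number ties the groups together. The C1 libraries are cells at the lowest concentration and not untreated cells, and solvent controls were not used here. The unit of the concentration labels is open, since the treatment protocol gives far smaller numbers in micromolar.

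Histone deacetylases remove acetyl groups from histone tails and from other proteins, mostly within corepressor complexes that keep genes silent. Valproic acid is a branched short-chain fatty acid used against epilepsy that inhibits class I deacetylases, is activated and oxidised through the mitochondrial fatty acid pathway, and is cleared largely by glucuronidation. In liver it is known for fat accumulation, raised ammonia and interference with folate metabolism, and the gene lists below follow these roles.

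Total counts ran from 3442880 to 5123094 in the C1 libraries and from 2819227 to 4457563 in the C4 and C5 libraries, with 12676 to 13492 probes at 5 or more counts in the valproic acid libraries. The 10 most abundant probes took 8.3% to 9.4% of counts at C1 and 4.1% to 5.0% at C4 and C5. The C4 library of batch 3, which had the lowest total (2819227), stood apart. On the log2(CPM + 1) scale, where CPM is the count scaled to library size, it correlated at 0.885 to 0.928 with the other 5 C4 and C5 libraries, against 0.950 to 0.965 among those 5. The hepatocyte markers summed to between 48640 and 57950 CPM at C1 and between 17440 and 23740 CPM at C4 and C5, so the labelled cell type was present throughout. In bulk lysates, fewer cells of a type and less RNA per cell cannot be told apart. The biliary and progenitor markers summed to 72.5 to 73.6 CPM at C1 and 98.0 to 145 CPM at C4 and C5, with EPCAM at or under 3 counts in all 9 libraries. The mesenchymal markers summed to 228 to 265 CPM at C1 and 210 to 258 CPM at C4 and C5, with THY1 at that floor, the endothelial markers to 12.0 to 14.7 and 3.70 to 13.2 CPM with CDH5, VWF, STAB2, ERG and CLEC4G at the floor, the immune markers to 43.9 to 64.0 and 16.9 to 33.5 CPM with PTPRC, CD163, CSF1R, LYZ, CD3E and MS4A1 at the floor, and squamous markers to 27.3 to 34.8 and 8.05 to 26.0 CPM with IVL and SPRR1B at the floor. The part of these markers in the changes below was not tested.

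Promoter windows of 5 genes on which the results turn are shown first. AFM, ALB and HAO2 encode liver products that fell steeply, while CYP1A1 and PLIN2 rose more than the mean of 3 other inhibitors. Each window is the 250 bases before the RefSeq gene start on GRCh38.p14, 5′ to 3′ on the gene's strand. Capitals mark matches, on either strand, to GTTAAT (part of the HNF1 site), CAAAGT (part of the HNF4 site), TTGCNNAA (C/EBP), TATAAA (the TATA box) or GGGCGG (the GC box), and 2 matches may share bases.
AFM, chr4:73481495-73481744, plus strand: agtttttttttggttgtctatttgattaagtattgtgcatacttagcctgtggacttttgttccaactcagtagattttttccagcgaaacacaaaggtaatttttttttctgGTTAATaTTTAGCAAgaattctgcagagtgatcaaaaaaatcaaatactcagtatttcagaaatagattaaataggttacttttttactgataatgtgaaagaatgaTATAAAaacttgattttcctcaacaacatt
ALB, chr4:73404037-73404286, plus strand: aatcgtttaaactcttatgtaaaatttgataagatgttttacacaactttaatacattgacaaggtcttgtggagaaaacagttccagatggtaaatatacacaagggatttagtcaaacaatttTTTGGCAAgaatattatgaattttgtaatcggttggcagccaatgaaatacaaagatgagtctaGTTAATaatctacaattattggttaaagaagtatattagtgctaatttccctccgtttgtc
HAO2, chr1:119368535-119368784, plus strand: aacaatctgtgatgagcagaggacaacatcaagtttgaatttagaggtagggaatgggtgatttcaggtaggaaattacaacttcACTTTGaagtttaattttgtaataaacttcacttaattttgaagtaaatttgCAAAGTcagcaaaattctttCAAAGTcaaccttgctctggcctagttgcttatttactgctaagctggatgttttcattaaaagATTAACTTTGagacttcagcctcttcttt
CYP1A1, chr15:74725529-74725778, minus strand: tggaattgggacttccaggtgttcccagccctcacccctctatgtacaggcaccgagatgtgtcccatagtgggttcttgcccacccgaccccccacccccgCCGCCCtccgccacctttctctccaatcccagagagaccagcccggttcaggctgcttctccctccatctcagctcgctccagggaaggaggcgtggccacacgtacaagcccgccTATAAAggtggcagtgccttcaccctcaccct
PLIN2, chr9:19127493-19127742, minus strand: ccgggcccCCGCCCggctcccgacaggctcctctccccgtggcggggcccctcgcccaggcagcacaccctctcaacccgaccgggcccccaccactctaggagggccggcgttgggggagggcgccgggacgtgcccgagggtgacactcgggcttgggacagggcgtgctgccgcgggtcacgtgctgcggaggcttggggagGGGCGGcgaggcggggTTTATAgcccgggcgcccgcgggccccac
The HAO2 window held 4 matches to CAAAGT and 1 to GTTAAT. AFM and ALB each held 1 GTTAAT and 1 TTGCNNAA. The PLIN2 window, rich in G and C, held 2 GC boxes and a TATA box, and the CYP1A1 window held 1 of each. RefSeq windows of 300 bases, from 250 before to 50 after the start, matched 9595 of the 11676 gene symbols tested. CAAAGT occurred in 8.5% of these windows, in 15.9% of the windows of genes that fell and in 30.4% of those that fell at least 4-fold, against 7.5% of the windows of genes that rose. GTTAAT occurred in 4.2% of all windows, in 16.8% of those of genes that fell at least 4-fold and in 3.8% of those of genes that rose. TTGCNNAA occurred in 7.5% of all windows, in 25.6% of those of the 4-fold fallers and in 13.5% of those of genes that rose at least 4-fold. TATAAA likewise occurred in 6.3% of all windows, in 20.8% for the 4-fold fallers and in 12.6% for the 4-fold risers. GGGCGG went the other way, occurring in 67.5% of all windows and 22.4% of those of the 4-fold fallers, but its share was also low, at 51.4%, for genes that rose at least 4-fold. These shares are a description of letters in fixed windows and say nothing of whether a factor was bound.

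Raising valproic acid from the lowest to the 2 highest concentrations changed probes in both directions, and among abundant probes more were called lower than higher. Of 12982 probes tested, 696 rose (5.36% called higher) and 883 fell (6.8% called lower), where a call needs a fold of at least 1.5 and an adjusted p under 0.05 by edgeR's quasi-likelihood test with Benjamini-Hochberg adjustment. The median log2 change over all tested probes was 0.03. The calls came from 674 and 823 gene symbols, and 155 probes rose and 175 fell at least 4-fold. By level, taken as the mean of the C1 mean and the C4 and C5 mean, 255 of the 2513 probes at 100 CPM or more fell (10.15%) and 85 rose (3.38%), with a median log2 change of -0.03 over all 2513. Of the 4224 probes under 10 CPM, 135 fell (3.2%) and 177 rose (4.19%). In 589 of the 696 risers and 810 of the 883 fallers the 6 high-concentration libraries did not overlap the 3 C1 libraries, and such separation was seen upward in 8.15% and downward in 9.53% of all tested probes. Every riser was higher at C4 and C5 in all 3 batches, and 879 of the 883 fallers were lower in all 3. The calls were made on these same libraries, so this agreement largely follows from the call and is not separate support. Without the C4 library of batch 3, 871 probes rose (6.74%) and 1038 fell (8.03%), and 1494 of the 1579 calls were kept. Without all libraries of batch 1, 231 rose and 467 fell, and without those of batch 2, 240 rose and 449 fell.

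**Figure D1:**
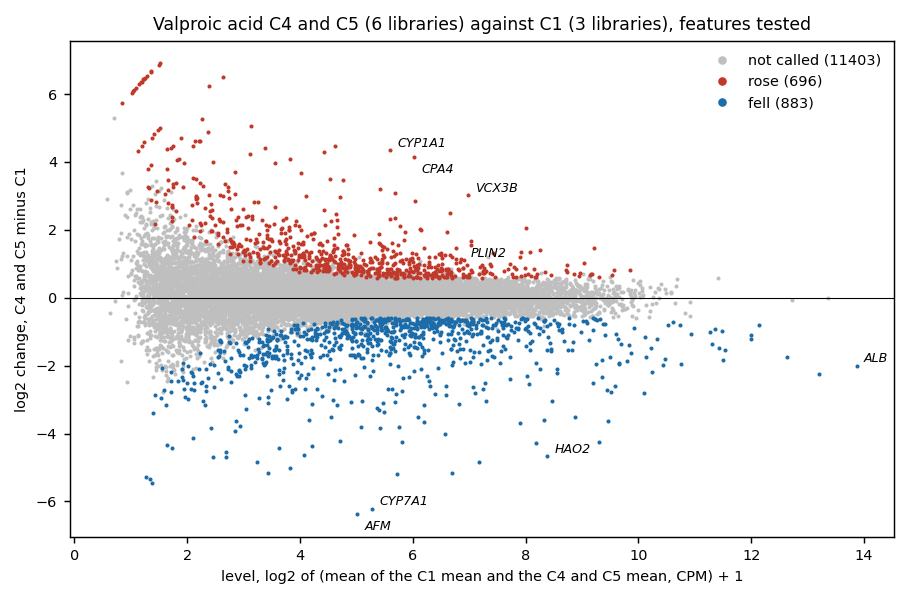
Log2 change of each tested probe (C4 and C5 minus C1, vertical axis) against its level (log2 scale, horizontal axis); red probes rose, blue probes fell and grey probes were not called. Blue points extend to the most abundant transcripts on the right, where ALB lies, while most of the 696 red points lie at low to middle levels; the short diagonal of red points at the upper left holds probes near 0 counts at C1, whose fitted changes are not bounds.

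No difference between the pooled concentrations passed the test. No probe of 12982 (0%) was called between C5 and C4 by edgeR's test, though 1596 (12.3%) had an unadjusted p under 0.05. DESeq2 called 19, and the median absolute log2 difference was 0.31. The edgeR count of calls was 1262 when the C4 library of batch 2 was left out. At the intermediate concentrations, edgeR called no probe at C2 against C1, where 655 had an unadjusted p under 0.05, and at C3 it called 38 that rose and 109 that fell.

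Among probes that averaged at least 20 CPM at C4 and C5 and whose groups did not overlap, the 12 largest rises were those of C15orf48, CYP1A1, HBG1, CPA4, DHRS9, HLA-DQB1, FABP4, SUN3, CNTN1 with both of its probes, UGT2B11 and VCX3B. DHRS9, a retinol and steroid dehydrogenase, measured 1.44, 2.20 and 0.745 CPM in the C1 libraries of batches 1, 2 and 3. At C4 and C5 its lowest, median and highest values were 21.3, 25.8 and 27.0 CPM. Separation of the groups was a condition for naming these 12 probes and is not a result about them. Its log2 change was 4.09 ± 0.40 (SE; edgeR adjusted p = 2.37e-07). CNTN1, a neural cell adhesion molecule, measured 5.36, 6.59 and 12.4 CPM at C1 with its more abundant probe and 48.6, 75.2 and 101 CPM (lowest, median, highest) at C4 and C5. Its 2 probes rose by 3.20 ± 0.30 and 3.46 ± 0.39 on the log2 scale (edgeR adjusted p = 9.11e-08 and 1.73e-06). The more abundant probe already averaged 23.3 CPM at C2 and 38.4 CPM at C3.

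VCX3B, of an X-linked family otherwise transcribed in testis, was the most abundant of these risers. Its C1 values were 29.5, 27.9 and 24.8 CPM and its C4 and C5 values ran from 179 through a median of 217 to 289 CPM, with means of 33.4 at C2 and 44.0 at C3, so that most of its rise fell between C3 and C4. SUN3, a nuclear envelope protein of the male germ line, rose by 3.49 ± 0.43 on the log2 scale, from 1.44, 6.27 and 3.48 CPM to between 20.7 and 58.8 CPM (edgeR adjusted p = 4.79e-06). HLA-DQB1, the beta chain of an MHC class II molecule, stood at 0.824, 1.57 and 1.49 CPM at C1 and at 14.1 to 31.3 CPM at C4 and C5. C15orf48, a small mitochondrial protein related to a respiratory chain subunit, had the largest rise of the 12, 4.48 ± 0.38 (edgeR adjusted p = 2.15e-08), and CPA4, a secreted carboxypeptidase, the highest level among the others that started under 10 CPM, with a median of 114 CPM. HBG1, a fetal gamma globin chain, rose by 4.28 ± 0.47 (edgeR adjusted p = 1.04e-06), but its reads cannot be separated here from those of the near-identical HBG2. The same holds for the closely related members of the VCX, UGT1A, UGT2B, CYP2C, CYP3A, CYP4A, ACSM2, CFHR and metallothionein families, since matches of probes to similar copies were not checked.

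**Figure D2:**
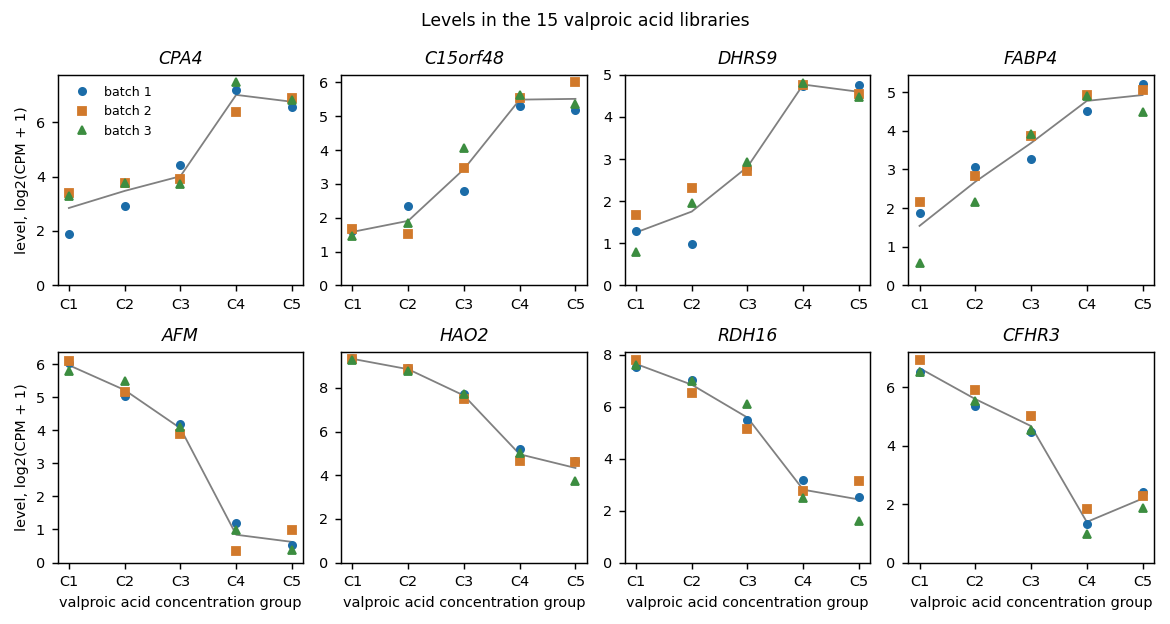
Level, as log2(CPM + 1), of 4 rising genes (upper row) and 4 falling genes (lower row) in the 15 valproic acid libraries from C1 to C5; each symbol is 1 library of HepaRG batch 1, 2 or 3 and the line joins the means. CPA4 and DHRS9 step up mainly between C3 and C4, HAO2 and RDH16 fall from C2 onward, and in each panel the means at C4 and C5 lie closer to each other than to that at C3.

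By the same rule, with the 20 CPM taken at C1, the 12 largest falls included those of AFM, CYP7A1, CFHR3, RDH16, CFHR4, HAO2, AHSG, GPD1, SLC22A7 and ABCA6. AFM, a vitamin E carrier of the albumin family, measured 64.5, 67.1 and 54.4 CPM at C1, then averaged 36.6 at C2 and 15.8 at C3. At C4 and C5 its lowest, median and highest values were 0.261, 0.705 and 1.31 CPM. The change was the largest of the named falls, -6.37 ± 0.30 on the log2 scale (edgeR adjusted p = 3.47e-12). RDH16, a microsomal retinol dehydrogenase, went from 184, 222 and 193 CPM to between 2.05 and 8.08 CPM, a change of -5.15 ± 0.26 (edgeR adjusted p = 1.33e-11). CFHR3 and CFHR4, complement factor H related proteins, fell by 5.20 and 5.03 on the log2 scale. GPD1, which links glycolysis to triglyceride synthesis, fell by 4.44 and AHSG, the plasma protein fetuin-A, by 4.64. ABCA6, a lipid transporter of the ABC family, fell by 4.26.

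Among the 27 lists of genes by function, those of proteins that hepatocytes secrete had the largest shares of falling probes. Counts in each list are to be read against the 5.36% of all tested probes called higher and the 6.8% called lower. Of the tested probes for plasma carrier and acute phase proteins, 21 of 28 fell and none rose, with a median log2 change of -1.91. Counts of 0 in a list are edgeR's, and DESeq2 also gave 0 in the lists described except where its count is stated, while an unadjusted p under 0.05 in the uncalled direction was seen for 1 probe each of fatty acid synthesis, the CYP4 hydroxylases and the corepressor subunits and for 0 of the plasma carrier, complement, lipoprotein assembly and bile acid lists. ALB, the main plasma protein, fell from 23130, 28390 and 20550 CPM to a range of 4140 to 7814 CPM with a median of 6017 CPM, a change of -2.01 ± 0.17 (edgeR adjusted p = 1.69e-08). ITIH2, a heavy chain of a hyaluronan-binding protease inhibitor, fell by 3.50, and CRP, the C-reactive protein, by 2.95. TTR, the thyroxine carrier transthyretin, was not called. It measured 7227, 6819 and 6634 CPM at C1 and 4161 to 10590 CPM at C4 and C5, so its groups overlapped (log2 change -0.07, edgeR adjusted p = 0.854). Complement had 24 of 32 probes falling and none rising (median -1.54), with C9, a subunit of the lytic pore, at -3.85 and C8G, a chain of C8, at -2.75. Coagulation had 20 of 27 falling (median -1.55), among them SERPIND1 (heparin cofactor II, -3.59), KNG1 (kininogen, -3.51), F7 (factor VII, -3.14), F11 (factor XI, -3.08) and PLG (plasminogen, -2.69). The 2 coagulation probes that rose were F3, tissue factor, at 0.92 ± 0.25 (edgeR adjusted p = 0.0156), and a probe of TFPI2, a protease inhibitor, at 1.29 ± 0.29 (edgeR adjusted p = 0.00424), the latter with overlapping groups.

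**Figure D3:**
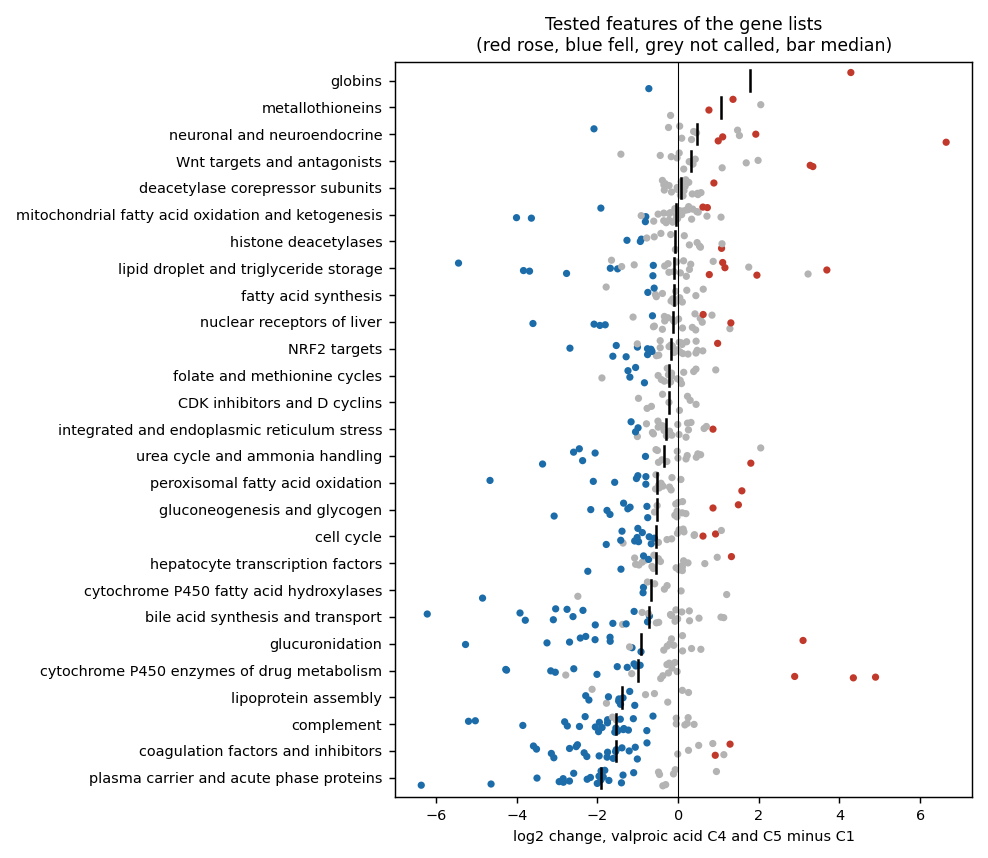
Log2 change (C4 and C5 minus C1, horizontal axis) of every tested probe in the 27 gene lists, ordered by median (black bar); red probes rose, blue fell and grey were not called. Secreted protein lists lie at the bottom with medians down to -1.91, while deacetylase subunits and mitochondrial fatty acid oxidation centre near 0; the point beyond 6 is GAP43, which had 0 counts in the C1 libraries, so its fitted change is not a bound.

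Mitochondrial fatty acid oxidation, the pathway that also oxidises valproic acid, held steep falls beside core enzymes that were not called. Of 33 probes for mitochondrial oxidation and ketogenesis 5 fell (15.2%, against 6.8% of all probes) and 2 rose (6.06%, against 5.36%), with a median of -0.06. Without the C4 library of batch 3, 7 fell and 1 rose. The ACSM2 acyl-CoA synthetases, which activate medium-chain acids, fell steeply. ACSM2A went from 1174, 1250 and 1495 CPM at C1 to 67.2, 95.5 and 147 CPM (lowest, median, highest), a change of -3.64 ± 0.20 (edgeR adjusted p = 4.28e-11), and ACSM2B fell by 4.01. HADHA, the long-chain trifunctional subunit of the beta-oxidation spiral, had a log2 change of 0.19 (edgeR adjusted p = 0.455) and was not called. Neither was ACADVL, the very-long-chain dehydrogenase, at -0.06 (edgeR adjusted p = 0.903). CPT2, the inner carnitine acyltransferase, was not called either, at -0.04 (edgeR adjusted p = 0.89). CPT1A, the outer carnitine acyltransferase, was at 30.3, 27.9 and 32.0 CPM at C1 and 37.2 to 87.1 CPM at C4 and C5, groups that did not overlap, but it missed the threshold (log2 change 0.71, edgeR adjusted p = 0.0574). Both rises were probes of SLC22A5, the carnitine importer OCTN2, at 0.61 ± 0.20 and 0.72 ± 0.20 (edgeR adjusted p = 0.0466 and 0.0146), and without the C4 library of batch 3 the first was at 0.57, under the fold threshold.

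Peroxisomal oxidation had 7 of 18 probes falling (38.9%) and 1 rising (5.56%, against 5.36% of all probes), with a median of -0.52. EHHADH, the peroxisomal bifunctional enzyme, fell by 1.57, and HAO1 and HAO2, the 2-hydroxyacid oxidases, by 2.10 and 4.67. HAO2 measured 662, 645 and 620 CPM at C1 and 12.3 to 35.6 CPM at C4 and C5. ABCD2, a peroxisomal importer of very-long-chain acids, rose instead, from 7.62, 6.59 and 4.47 CPM to between 15.9 and 21.4 CPM, a change of 1.58 ± 0.29 (edgeR adjusted p = 0.000683). The fatty acid hydroxylases of the CYP4 family had 3 of 10 falling and none rising, with CYP4F2 at -0.86 and CYP4F11 at -0.87, and 5 fell and 1 rose where no filter on low counts was used.

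Lipid storage genes moved in both directions, with 5 of 29 probes rising and 8 falling (median -0.10). PLIN2, the perilipin that coats lipid droplets in liver, measured 76.0, 60.2 and 89.4 CPM at C1 and 130, 158 and 213 CPM (lowest, median, highest) at C4 and C5. All 6 high-concentration libraries lay above all C1 libraries, and the log2 change was 1.10 ± 0.17 (edgeR adjusted p = 0.000125). GPAM, which makes the first step of triglyceride synthesis, went from 25.8, 64.0 and 26.1 to between 65.7 and 105 CPM, rising by 1.16, with a C1 library of batch 2 just below the lowest high-concentration library. ANGPTL4, an inhibitor of lipoprotein lipase, rose by 1.95 ± 0.63 (edgeR adjusted p = 0.0395) at a low level, with overlapping groups, and BSCL2, seipin, which shapes lipid droplets, by 0.77. FABP4, the adipocyte fatty acid binding protein, rose by 3.69, while its liver counterpart FABP1 fell by 3.69 and 3.84 with its 2 probes. CIDEB, a droplet protein that takes part in lipoprotein lipidation, fell by 2.77. Lipoprotein assembly had 9 of 16 probes falling and none rising (median -1.40), led by APOH at -2.29 and APOC1 at -2.21, while APOB, the structural protein of very-low-density lipoprotein, went from 3672, 4054 and 4494 CPM to between 1126 and 2043 CPM. De novo fatty acid synthesis had 2 of 16 falling and none rising (median -0.11), namely FASN, fatty acid synthase, at -0.75 and SCD, stearoyl-CoA desaturase, at -0.60, the latter no longer called without the C4 library of batch 3 (-0.48) or with batch as a block (-0.60).

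For ammonia handling, 6 of 20 probes fell (30.0%, against 6.8% of all probes) and 1 rose (5.0%, against 5.36%), with a median of -0.34. CPS1, the entry enzyme of the urea cycle, measured 92.7, 104 and 84.7 CPM at C1 and 9.65, 17.2 and 29.6 CPM (lowest, median, highest) at C4 and C5, a change of -2.37 ± 0.26 (edgeR adjusted p = 9.67e-07). ARG1, the liver arginase that closes the cycle, went from 68.4, 94.1 and 78.7 CPM to between 5.55 and 10.9 CPM, a change of -3.36 ± 0.22 (edgeR adjusted p = 3.34e-10). Neither gene had overlapping groups. The single riser was ARG2, the mitochondrial arginase found outside liver, from 8.45, 5.33 and 3.48 CPM to between 15.5 and 24.1 CPM (1.80 ± 0.34 on the log2 scale, edgeR adjusted p = 0.000885). SLC38A3, a hepatocyte glutamine transporter, fell by 2.45. ASS1 and ASL, which form and cleave argininosuccinate, were not called (edgeR adjusted p = 0.486 and 0.0692). In the folate and methionine cycles 4 of 21 fell and none rose by edgeR (median -0.22), while 2 had an unadjusted p under 0.05 upward and DESeq2 called 1 rise. TYMS, thymidylate synthase, fell from 1084, 984 and 1060 CPM to between 440 and 563 CPM, and MAT1A, the liver methionine adenosyltransferase, and BHMT2, a homocysteine methyltransferase, fell with overlapping groups. SHMT2, the mitochondrial serine hydroxymethyltransferase, was at -1.24 ± 0.41 (edgeR adjusted p = 0.0468), a call lost with batch as a block (-1.25).

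The list of drug-metabolising enzymes held both steep falls and steep rises. Of 24 cytochrome P450 probes, 11 fell and 3 rose (median -0.996), and the 3 that rose belonged to the CYP1A pair. CYP1A1, which oxidises aryl hydrocarbons, measured 3.30, 3.14 and 6.70 CPM at C1 and 57.7, 82.5 and 164 CPM (lowest, median, highest) at C4 and C5, after a mean of 30.6 CPM at C3. Its log2 change was 4.34 ± 0.40 (edgeR adjusted p = 6.91e-08), and a second, weaker probe was at least 10.5-fold higher against a floor of 3 counts per library at C1. CYP1A2, its hepatic paralogue, rose at a low level, to between 1.46 and 4.79 CPM (edgeR adjusted p = 0.0415). AHR, the receptor that drives both genes, was not called (log2 change 0.44, edgeR adjusted p = 0.162), nor was CYP1B1, another target of it (-0.38, edgeR adjusted p = 0.579). CYP2C8 fell by 3.16, and CYP3A4, the main drug-oxidising enzyme of adult liver, by 1.51 and 1.05 with its 2 probes. CYP2J2, CYP2C18 and both probes of POR, the reductase that serves these enzymes, were not called.

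Glucuronidation, the main route of valproic acid clearance, had 10 of 21 probes falling and 1 rising (median -0.92). UGT1A9 went from 84.7, 89.7 and 43.9 CPM to between 5.24 and 12.6 CPM, UGT2A3 fell by 2.69 and UGT2B4 by 2.43. UGT2B11 rose, from 15.5, 8.16 and 7.70 to a median of 95.0 CPM. UGT1A6 had log2 changes of -0.27 and -0.11 with its 2 probes, and neither was called (edgeR adjusted p = 0.365 and 0.693). Bile acid synthesis and transport had 14 of 32 falling and none rising (median -0.73), with CYP8B1, which makes cholic acid, at -3.92, ABCG5 and ABCG8, which together export sterols, at -3.79 and -3.10, and SLCO2B1, an organic anion importer, from 246, 256 and 330 CPM to between 21.5 and 58.8 CPM. CYP7A1, the rate-limiting enzyme of bile acid synthesis, averaged 35.0 CPM at C2 and 4.71 at C3, and its highest C4 or C5 library reached 2.40 CPM.

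Transcription factors that control these genes in liver were examined next. Of 26 nuclear receptor probes, 5 fell (19.2%, against 6.8% of all probes) and 2 rose (7.69%, against 5.36%), with a median of -0.12. NR1I3, the constitutive androstane receptor, fell from 32.3, 42.0 and 19.1 CPM to between 0.650 and 5.22 CPM (-3.60 ± 0.41, edgeR adjusted p = 1.53e-06), and NR1I2, the pregnane X receptor, fell by 1.94 and 1.81 with its 2 probes. NR2F1, an orphan receptor of progenitor and neural cells, rose from 28.0, 14.4 and 14.2 CPM to between 41.0 and 53.7 CPM (1.31 ± 0.22, edgeR adjusted p = 0.000311). PPARA, the fatty acid receptor of liver, had changes of -0.13 and -0.12 with its 2 probes and was not called (edgeR adjusted p = 0.774 and 0.796). Of 24 hepatocyte transcription factor probes, 4 fell (16.7%) and 1 rose (4.17%), with a median of -0.55. ATF5 fell by 2.24, CEBPD by 1.42, PROX1, a homeobox factor of liver development, by 0.86 and HNF4G by 0.73. HNF4A, a central regulator of hepatocyte genes, measured 15.0, 19.5 and 13.2 CPM at C1 and 5.00 to 18.2 CPM at C4 and C5 and was not called (-0.81, edgeR adjusted p = 0.162), but it passed without the C4 library of batch 3 (-1.11, edgeR adjusted p = 0.0122). Gluconeogenesis and glycogen had 9 of 21 falling, with G6PC, the glucose 6-phosphatase, at -3.08 and PCK1, the cytosolic carboxykinase, at -2.17, and 2 rising, of which PC, pyruvate carboxylase, rose by 0.86 and PYGB, the brain glycogen phosphorylase, lost its call without the C4 library of batch 3.

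Among the deacetylases themselves, probes of HDAC6 fell and HDAC11 rose. Of 15 probes of the 11 genes, 3 fell (20%, against 6.8% of all probes) and 1 rose (6.67%, against 5.36%), with a median of -0.07. All 3 fallers were HDAC6, the cytoplasmic tubulin deacetylase. Its most abundant probe measured 703, 772 and 829 CPM at C1 and 375, 400 and 427 CPM (lowest, median, highest) at C4 and C5, a change of -0.94 ± 0.10 without overlap (edgeR adjusted p = 8.24e-07). The other 2 probes had overlapping groups, and 1 of them lost its call with RLE scaling. HDAC11 rose by 1.08 ± 0.32 (edgeR adjusted p = 0.0262), from 9.27, 13.8 and 14.2 CPM to between 18.3 and 34.2 CPM. Over the alternatives the list had 0 to 2 risers and 1 to 4 fallers, so the rise was not called under all of them. HDAC2, a class I enzyme, was higher in every C4 and C5 library, at 526 to 591 CPM against 364, 395 and 388 CPM, but its change of 0.53 ± 0.11 (edgeR adjusted p = 0.00203) stayed under the 1.5-fold needed for a call. HDAC1, HDAC3 and HDAC8, the other class I enzymes, were not called (edgeR adjusted p = 0.299, 0.363 and 0.748). Among 26 probes of corepressor subunits, 1 rose, SAP18 at 0.89 ± 0.25 (edgeR adjusted p = 0.0182), and none fell. That single rise was 3.85% of the list, under the 5.36% of all probes called higher.

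Called mitotic genes fell, while 2 helicase subunits rose. Of 24 cell cycle probes 11 fell (45.8%, against 6.8% of all probes) and 2 rose (8.33%, against 5.36%), with a median of -0.54. The mitotic cyclin CCNB1 went from 53.2, 44.6 and 48.7 CPM to between 13.7 and 22.4 CPM, and the mitotic kinases AURKA and PLK1 fell by 1.78 and 1.39. MKI67, the proliferation antigen, measured 309, 274 and 304 CPM at C1 and between 121 and 201 CPM at C4 and C5, with no overlap and a log2 change of -0.89 ± 0.13 (edgeR adjusted p = 6.49e-05). The 2 risers were MCM3 and MCM6, subunits of the replicative helicase, by 0.62 ± 0.13 and 0.93 ± 0.23 (edgeR adjusted p = 0.00254 and 0.00811), and 1 of them, MCM6, was called without the C4 library of batch 3, where the log2 change of MCM3 was 0.55 and under the 1.5-fold threshold. Other replication genes, MCM7, PCNA, RRM2 and TK1, were not called. None of the 9 tested probes of CDK inhibitors and D cyclins was called by edgeR, 2 had an unadjusted p under 0.05, and DESeq2 called 1 probe falling. Without the C4 library of batch 3, edgeR also called 1 falling, CDKN2C, an inhibitor of CDK4 and CDK6, at -1.07 (adjusted p = 0.0211).

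Among stress genes GPX2 and TRIB3 fell, while SRXN1, GDF15 and MT2A rose. In the NRF2 list 9 of 31 probes fell (29.0%, against 6.8% of all probes) and 1 rose (3.23%, against 5.36%), with a median of -0.18: GPX2, a glutathione peroxidase, fell by 2.68, while SRXN1, sulfiredoxin, rose by 0.98 ± 0.15 (edgeR adjusted p = 0.000122). In the integrated and endoplasmic reticulum stress list 3 of 25 fell (12.0%) and 1 rose (4.0%), while 6 fell and 2 rose without the C4 library of batch 3, and 2 rose with batch as a block. TRIB3, a pseudokinase target of ATF4, fell from 281, 281 and 265 CPM to between 64.7 and 155 CPM, and GDF15, a stress cytokine, rose by 0.86 ± 0.14 (edgeR adjusted p = 0.000183). Of 4 metallothionein probes tested, MT2A rose by 1.36 and MT1M by 0.76, the latter with overlapping groups. Without the C4 library of batch 3, MT1M was at 0.58 and lost its call. The largest log2 change among the 4 probes, 2.05, was that of a probe that was not called. Both tested probes of DACT3, an antagonist of Wnt signalling, rose at low level, by 3.34 and 3.27, and edgeR called no other of the 14 Wnt probes, while DESeq2 called 4 rises in that list. In the neuronal list 4 of 13 rose and 1 fell. NPTX2, a neuronal pentraxin, measured 37.5, 33.3 and 48.9 CPM at C1 and 106 to 227 CPM at C4 and C5 (1.93 ± 0.22, edgeR adjusted p = 2.45e-06), and MAPT, the microtubule protein tau, rose by 1.10 without overlap. GAP43, a growth cone protein, had 0 counts in all C1 libraries and was at least 4.08-fold higher at C4 and C5 against the floor of 3 counts per library. Of the 4 tested biliary and progenitor probes, 2 rose: SPP1, osteopontin, by 2.29 ± 0.31 (edgeR adjusted p = 2e-05), from 8.24, 11.0 and 5.71 to between 28.0 and 53.5 CPM, and SOX9 by 0.75 (edgeR adjusted p = 0.0402), with 1 of the 2 still called when batch was a block.

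Whether the response differed from that of other deacetylase inhibitors was tested against apicidin, mocetinostat and panobinostat, which ran on the same plate at 5 concentrations each. The test took the change of valproic acid from C1 to C4 and C5 minus the mean of the same change for the other 3, in one edgeR fit over 59 libraries. C1, C4 and C5 were labelled 0.041722, 0.5 and 0.86 for apicidin, 0.177222, 2.5 and 3.9 for mocetinostat and 0.001468, 0.03963 and 0.084 for panobinostat, in micromolar by the treatment protocol and with 3 libraries at each concentration, so the concentrations are not matched. Of 14723 probes, 335 differed (2.28%), of which 237 had a difference above 0 (1.61%) and 98 below 0 (0.666%). In 229 of the 237 the mean change of the other 3 was negative, and 68 of the 237 also fell with valproic acid while 29 rose with it. All 98 below 0 had a positive mean change with the other 3. Without the C4 library of batch 3 the counts were 173 and 77. They fell to 89, 96 and 105 above and 49, 34 and 42 below without the C1 library of batch 1, 2 or 3, to 33, 35 and 63 above and 9, 7 and 16 below without all libraries of one batch, and to 27 and 4 with trichostatin A added to the mean.

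DHRS9, CYP1A1 and PLIN2 rose more with valproic acid than with the other inhibitors, and these differences passed under every alternative run. DHRS9 changed by 4.07 with valproic acid, 1.06 with apicidin, 0.03 with mocetinostat and 1.75 with panobinostat on the log2 scale, a difference of 3.12 ± 0.53 from the mean (edgeR adjusted p = 0.000171). CYP1A1 changed by 4.33, 1.63, 0.46 and 2.78 in the same order, a difference of 2.70 ± 0.51 (edgeR adjusted p = 0.000929). PLIN2 had a change above 0 with valproic acid alone of the 4, 1.09 against -0.30, -2.49 and -0.32, a difference of 2.12 ± 0.35 (edgeR adjusted p = 0.000115). In the same test FAM180A (2.09), PLA1A, a phosphatidylserine phospholipase (1.46), SPHK1, sphingosine kinase 1 (1.42), SLC7A7, a cationic amino acid transporter subunit (1.41), and BMP1, a procollagen protease (1.33), lay above the mean of the 3. ADARB1, an RNA-editing deaminase, lay below it with both probes (-1.14 and -1.05). Each of these smaller differences lost its call under 2 or more alternatives, and the rises of SLC7A7 and BMP1 with valproic acid itself were not called with batch as a block.

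**Figure D4:**
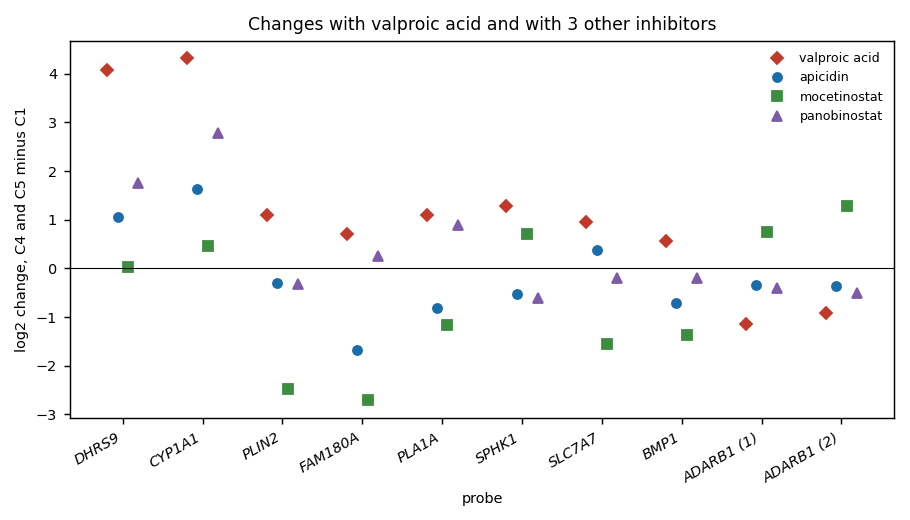
Log2 change from C1 to C4 and C5 with valproic acid (red diamonds), apicidin, mocetinostat and panobinostat for 10 probes. In each, the valproic acid change differed from the mean of the other 3 and was itself called in the same direction. They are the largest such differences, up to 8 per direction, among probes with at least 20 CPM in the higher valproic acid group. PLIN2 lies above 0 with valproic acid and below 0 with the other 3, and for 7 of the 10 probes the lowest value is that of mocetinostat.

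Several lipid and CYP3A genes fell less with valproic acid than the mean of the 3, or did not fall. List counts for this difference are to be read against the 1.61% of all probes above 0 and the 0.666% below 0. In lipid storage 5 of 30 tested probes differed, and 4 of the 5 were not called rising with valproic acid. CIDEC, a droplet fusion protein, stood at 109 CPM on average at C1 and 113 at C4 and C5, with a difference of 2.39 from the other inhibitors, whose mean change was -2.36 (edgeR adjusted p of the difference = 2.39e-06). PLIN4, a perilipin, had a difference of 2.74 (edgeR adjusted p = 0.00491). In mitochondrial oxidation and ketogenesis 4 of 35 differed, among them CPT2, ACAA2 and ACSM5. CYP3A4 changed by -1.53 with valproic acid and by -4.91, -7.08 and -1.54 with apicidin, mocetinostat and panobinostat, with a difference of 2.98 ± 0.35 (edgeR adjusted p = 2.93e-07). Of 26 drug-metabolising P450 probes 7 differed, 6 of them in the CYP3A family. HNF4A (2.13, edgeR adjusted p = 0.0201) and NR1H4, the bile acid receptor FXR (2.23), also lay above the mean of the 3. HNF4A changed by -0.82 with valproic acid and by -2.90, -4.90 and -1.05 with apicidin, mocetinostat and panobinostat, so its change was close to that with panobinostat. Metallothioneins lay on the other side, with 3 of 6 below, MT2A at -1.61, MT1M at -1.67 and MT1E at -1.42. MT2A changed by 1.34 with valproic acid and by 3.29, 4.17 and 1.415 with apicidin, mocetinostat and panobinostat. MT1M changed by 0.75, 3.12, 3.42 and 0.71 in the same order. Both changes with valproic acid were thus close to those with panobinostat.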

How the data were processed

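Differentiated HepaRG cells were profiled with the TempO-Seq human whole transcriptome panel. The authors deposited raw counts per probe and library, and bcl2fastq 2.20.422, fastp 0.23.2, STAR 2.7.10b and DESeq2 1.38.0 are named in the submitters' processing notes, while the genome build and probe annotation are not given in the sources used here. Of 22069 rows, 1 with missing values in 88 libraries was left out. Library groups came from the labels. Counts were tested in R 4.3.3 with edgeR 4.0.16 (filterByExpr, TMM, quasi-likelihood F test) over all 15 valproic acid libraries, grouped as C1, C2, C3 and C4 with C5, with Benjamini-Hochberg adjustment over all probes tested, and DESeq2 1.42.0 was an alternative. Quoted levels are TMM-scaled CPM, and ± after a log2 change is the standard error. A fold against a group of at most 3 counts per library was set against that floor. Floors cover counting error only, since PCR reads carry no molecular identifiers. The script was tested on simulated data.

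The members and lists were chosen with earlier results of these data known. Named probes were the 12 largest non-overlapping called rises and falls with at least 20 CPM in the higher group, up to 5 called probes per list (the 2 most abundant where none was called), HDAC1, HDAC2, HDAC3 and HDAC8, and up to 8 probes per direction of the difference from other inhibitors. GPAM, ANGPTL4, BSCL2, F3, TFPI2, SLC22A5, ARG2, MCM3, MCM6, SRXN1, PC, CDKN2C, further members of the difference test, members named as not called and the split by level were chosen after their values were seen. Replicate numbers stand for HepaRG batches in the labels, so the block pairs libraries: deviations from group means had a median correlation of 0.04 within batches (30 pairs) and -0.03 between them (60 pairs). Replicates are batches of 1 line. The main fit has no batch term and takes the 6 C4 and C5 libraries, from 3 batches, as separate units. Its p-values measure the spread within groups, which for the pooled group includes any difference between C4 and C5. Within a group no 2 libraries agreed within sampling noise (chi-square per degree of freedom at least 6.05). Alternatives were RLE scaling, DESeq2, no filter, a batch block, other groupings and folds, trichostatin A added, and leaving out libraries or batches. FABP5, SHMT1, MAT2A, VKORC1, FTH1, HSP90B1 and CD24 were not analysed here. Some genes that the rules would name are not reported here, though counts include them.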

Additional observations from a re-analysis of the deposited data

Results flagged for a closer look

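In 13 named probes 1 of the 6 C4 and C5 libraries lay far from the other 5, by a gap test of log2 levels at the 95% level that chance passes in about 1 of 20 groups. The C4 library of batch 3 was the highest for PECR at 45.2 CPM (others 16.2 to 23.0) and for FASN at 399 CPM (others 226 to 277), and the lowest for CFHR2 at 39.0 CPM (others 219 to 412). The C4 library of batch 1 was the highest for CYP4A11 at 2.40 CPM, for GCKR at 28.4 CPM (others 15.6 to 19.1) and for SCG5 at 2.40 CPM, and the lowest for SLC7A7 at 14.4 CPM (others 25.2 to 30.2). The C4 library of batch 2 was the lowest for UGT2B11 at 64.0 CPM (others 90.6 to 103). Among the C5 libraries, batch 2 was the highest for MOGAT2 at 0.245 CPM, which is 1 count, where the others were at 0. It was the lowest for GAP43 at 0.245 CPM (others 3.06 to 4.96). Batch 1 was the highest for UGT1A7 at 0.218 CPM, also 1 count, where the others were at 0. The gaps of MOGAT2 and UGT1A7 thus rest on 1 count each. Batch 3 was the lowest for APOC3 at 388 CPM (others 619 to 810) and the highest for AURKA at 10.8 CPM (others 2.93 to 4.40).

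Flagged too were the 10 probes named for edgeR's test of the valproic acid change against the mean change with apicidin, mocetinostat and panobinostat. They are not all the probes that differed. On the log2 scale the differences were 3.12 for DHRS9, 2.70 for CYP1A1, 2.12 for PLIN2, 2.09 for FAM180A, 1.46 for PLA1A, 1.42 for SPHK1, 1.41 for SLC7A7, 1.33 for BMP1 and -1.14 and -1.05 for the 2 probes of ADARB1.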

How the results depend on the processing

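No result reversed under any alternative, and the 12 largest rises and 12 largest falls kept their calls under all of them. The main counts of 696 probes rising and 883 falling became 417 and 545 with a fold of at least 2. The rising count ranged from 231 to 871 and the falling count from 449 to 1038 when a library or a batch was left out. With the replicate block (HepaRG batch) 701 probes rose and 889 fell, 1515 of 1579 calls were kept, and apart from the calls named above and the second probe of NR1I3 (-2.10, not called) the block changed no other named call. Between C5 and C4 the 0 calls became 19 with DESeq2 and 261 without the filter on low counts, and ranged from 0 to 1262 when a library was left out. The differences from 3 inhibitors, 237 above and 98 below, became 395 above with DESeq2, and 27 above and 4 below with trichostatin A added. When a library or a batch was left out they ranged from 33 to 231 above and from 7 to 95 below. Leaving out batch 2 cost 42 of the 136 named probes their call, the largest such loss. The cause of these shifts was not tested, though fewer samples enter where a batch is left out. With totals of 2819227 to 5123094 counts, probes of a few CPM carry few counts, and their folds are the least precise.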

Other observations

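Among probes that averaged at least 100 CPM at C1 and rose, 6 genes without overlap between the groups are described, chosen after their values were seen. They are not the 6 largest rises at that level: MT2A (1.36), NOMO2 (0.99) and MFGE8 (0.98) also exceeded several of them, as did NFYB (0.98), whose groups overlapped. EPHB6, a kinase-dead ephrin receptor, rose with both probes, and the more abundant one averaged 315 ± 30.4 CPM over the 3 C1 libraries and 876 ± 162 CPM over the 6 at C4 and C5 (± is the SD). Its log2 change was 1.48, with a standard error of 0.14 and an adjusted p of 1.8e-07 by edgeR. CYB5R1, a reductase of the cytochrome b5 reductase family, rose by 1.34 ± 0.15, from 152 to 384 CPM on average (edgeR adjusted p = 1.51e-06). MAPRE3, a protein that binds growing microtubule ends, rose by 1.19, and ERGIC1, a protein of the intermediate compartment between endoplasmic reticulum and Golgi, by 1.03. ANXA1, annexin A1, averaged 659 CPM at C1 and 1173 CPM at C4 and C5, a change of 0.83 ± 0.11 (edgeR adjusted p = 1.74e-05). The change lay below the mean of the 3 other inhibitors by 0.81 (edgeR adjusted p = 0.0102). In that test ANXA1 changed by 0.814 with valproic acid, 2.14 with apicidin, 2.06 with mocetinostat and 0.67 with panobinostat, so it was not below panobinostat. COL12A1, a collagen that associates with fibrils, rose by 0.90. Separation of the groups was a condition for describing these 6 genes and is not a result about them.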
